A study of Homo sapiens with 6 samples.

Results

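The 42 genes described here encode proteins of double-strand break repair by homologous recombination, of the Fanconi anaemia pathway, of the RecQ helicase family and of the ATM and ATR checkpoints. They were chosen by name from the 26485 gene symbols of the count tables, and all 42 were found there. All 42 also passed the filter on low counts, which left 12937 genes to test. RNA had been sequenced from AF22, an established human neural stem cell line derived from induced pluripotent stem cells. The knockdown group holds 3 libraries in which BMI1 and the read-through COMMD3-BMI1 were the targets. The control group holds 3 libraries labelled shControl, with a genotype given as WT. Both groups are the same line, the labels do not say that the 3 libraries of a group came from separate cultures, and the sources used here do not give the hairpins, how they were delivered or how long before harvest. Each p-value below thus rests on library-to-library spread, part or all of which may be technical.

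Homologous recombination repairs a broken chromosome by copying the intact sister, so it acts mainly in S and G2 phase. Resection first exposes single-stranded DNA, the proteins of BRCA1 and BRCA2 help to build the filament that searches for the sister, and helicases and translocases guide strand exchange and its dissolution. In the repair of crosslinks between DNA strands, Fanconi proteins attach ubiquitin to the FANCD2 and FANCI pair. The kinases ATM and ATR halt the cell cycle and mark chromatin around damage. BMI1, a subunit of Polycomb repressive complex 1, ubiquitinates histone H2A together with its catalytic partners.

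Total counts ran from 4962745 to 9640349 per library, of which the 42 genes took 12842 to 21041. The least counted gene, RAD51B, had at least 30 counts in each library. BMI1 was at 39.9, 21.5 and 26.2 CPM in knockdown libraries 1 to 3, against 85.1, 90.0 and 87.4 CPM in control libraries 1 to 3, where CPM, the standard counts-per-million unit, relates a count to its library's total after a correction for composition. Its log2 fold change was -1.64 (SE 0.155, edgeR adjusted p 0.00836) in a fit that pairs libraries by number, and -1.61 (adjusted p 0.163) in the unpaired one. Knockdown library 2 lay apart from the other 5 on the first principal component of all tested genes, and it had the lowest level of its group for 31 of the 42 genes. Of the neural stem cell markers, NES was at 1004, 577 and 1025 CPM in knockdown libraries 1 to 3, against 975, 1068 and 1055 CPM in control libraries 1 to 3, and SOX2 at 386, 282 and 308 CPM in knockdown libraries 1 to 3, against 384, 322 and 328 CPM in control libraries 1 to 3. PAX6 averaged 11.8 CPM in knockdown and 14.7 CPM in control libraries, and SOX1 20.6 CPM in knockdown and 25.8 CPM in control libraries. Of the 14 markers of that list tested, 11 had a paired log2 fold change below 0 (median -0.14). HES5 of that list was listed at 0 in every library, as were the neuronal genes ELAVL4, RBFOX3 and NEUROD1 and the pluripotency genes NANOG, ZFP42 and TDGF1. POU5F1, another pluripotency gene, was at 57.1, 68.3 and 73.7 CPM in knockdown libraries 1 to 3, against 66.7, 74.0 and 87.6 CPM in control libraries 1 to 3. Of the 3 pluripotency genes tested, POU5F1 among them, 1 had a paired log2 fold change below 0 (median 0.0041, range -0.20 to 0.25). The summed level of the 6 pluripotency genes was 600, 501 and 482 CPM in knockdown libraries 1 to 3, against 561, 408 and 492 CPM in control libraries 1 to 3.

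The first question was whether expression of these genes differed in knockdown cells. The log2 fold change was below 0 for 39 of the 42 genes, with a median of -0.37 without pairing and -0.37 with it, against -0.0029 and -0.0045 over all 12937 genes. The unpaired edgeR quasi-likelihood test with Benjamini-Hochberg adjustment called 0 of the 42 genes at an adjusted p of 0.05, as it called 0% of all genes. At an unadjusted p under 0.05 it gave 24 of the 42 as lower and 1 as higher, where all genes gave 7.88% lower and 6.56% higher. Unpaired DESeq2 called 6 lower (XRCC3, RAD54L, FANCA, FANCE, FANCD2 and RECQL4) and 0 higher, against 0.618% of all genes lower and 0.479% higher, and limma voom called 0. Libraries of the 2 groups that share a number deviated together across genes, so the number was also used as a block. In this paired fit 21 of the 42 genes fell and 0 rose, where 5.39% of all genes were called lower and 4.63% higher. The unpaired edgeR test run on the other 5 libraries, with knockdown library 1 left out, called 19 of the 42 lower and 0 higher, against 3.2% of all genes lower and 1.85% higher. Leaving out any one of the other 5 libraries in its place called 0 of the 42, as it called 0 of all genes. These fits gave 14 to 21 of the 42 as lower at an unadjusted p under 0.05. The share of all genes at that p was not counted in them, so these counts are not read as a result about the members. In what follows, a gene is said to have fallen where the paired test passed.

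Every knockdown library lay below every control library for 22 of the 42 genes, against 11.2% of all genes tested, and above them for 1, against 9.28%. The level was lower within all 3 pairs for 30 genes, against 26.7% of all genes, and higher within all 3 for 1, against 25.6%. The 3 pairs moved by different amounts. The median log2 difference of the 42 genes, knockdown minus control, was -0.19, -0.56 and -0.36 in pairs 1, 2 and 3. Pair 2 held the most negative difference for 36 genes and pair 1 the least negative for 32. Without pair 2, the paired fit called 22 of the 42 lower and 0 higher, where 8.55% of all genes were called lower and 9.33% higher. The median log2 fold change of the 42 was then -0.30, with 33 values below 0. The paired fit has few libraries beyond its terms to estimate spread, and fewer still without pair 2. Calls over all genes nonetheless rose from 5.39% lower and 4.63% higher with all 3 pairs. Passing without a pair thus does not show that a call is robust.

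**Figure D1:**
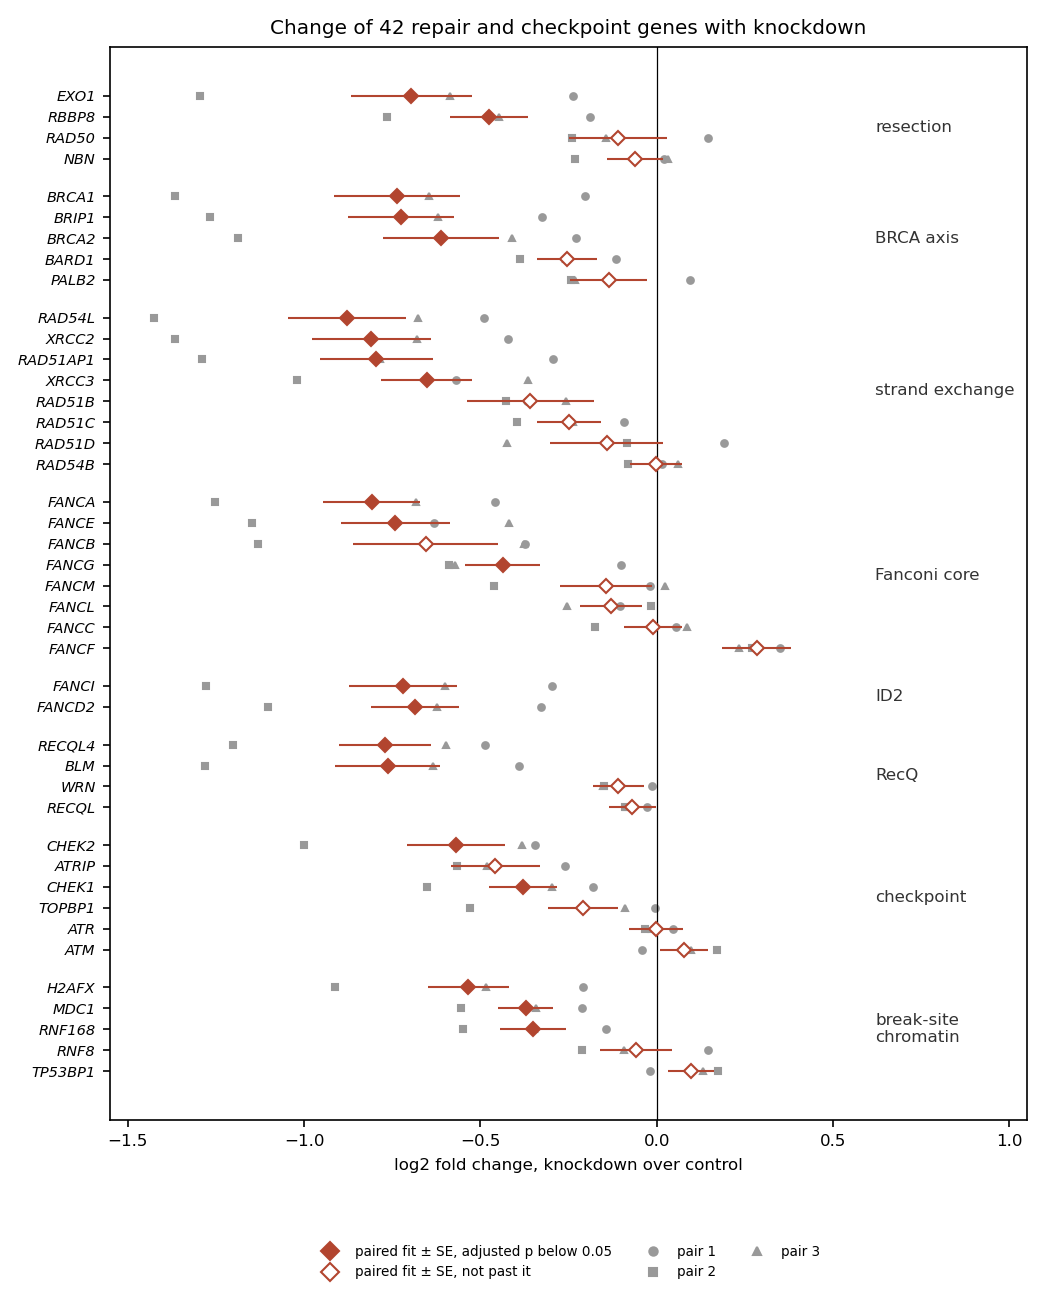
Change of the 42 genes, ordered within their pathway arm; the x axis is the log2 fold change, knockdown over control, diamonds are the paired edgeR fit with its SE (filled where the adjusted p is below 0.05), and grey symbols are the differences within pairs 1 to 3. The 21 filled diamonds lie between -0.88 and -0.35, and the squares of pair 2 lie farthest left for 36 genes.

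Each RefSeq promoter window used here runs from 250 bases before to 50 after a gene's start (GRCh38.p14), and 37 of the 42 genes were matched to one (all but NBN, RAD54B, FANCI, RECQL4 and WRN). Motif words were searched in it on both strands. The words TTTCCCGC, TTTCGCGC, TTTGCCGC and TTTGGCGC, forms of the site bound by E2F factors, were present in 6 of the 37 windows (16.2%), against 908 of 27305 promoters (3.33%). These 27305 are the first listed full-length window of each gene symbol, and the windows of the members were taken in the same way. Other starts of a gene were not searched, and the first listed one can lie far from the annotated start. The BRCA1 window (chromosome 17, 43170278 to 43170577) lies outside the annotated gene span (43044295 to 43170245). That of RBBP8 begins at 22933078, inside a gene that begins at 22798261. A window without a match thus does not show that a gene lacks the motif. They were not limited to the genes tested or matched to the members for GC content. CCAAT, the letters read by NF-Y, was present in 18 of 37 windows (48.6%), against 35.7% of all promoters. TTTGAA, the cell cycle homology region of genes bound by the MuvB complex, was present in 5 of 37 (13.5%), against 15.4% of all. No match of one motif shared a base with a match of another in these windows, and a match describes the letters only. In the 200 bases from 150 before to 50 after the start, 5 of 37 windows held an E2F word (13.5%), against 2.37% of all.

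The stretches with an E2F word are shown because the genes that carry one fall on both sides of the test: EXO1, XRCC2, FANCA and FANCD2 fell in knockdown cells in the paired fit, and FANCC and TOPBP1 did not pass. Each stretch is 80 bases long, 5′ to 3′ on the strand of the gene, and reaches at most 30 bases into the transcript. FANCC held a pair of E2F words, of which the one nearer the start is shown. Capitals mark matches to any of the 3 motifs. The stretches lie at chr1:241848146-241848225, plus strand (EXO1), chr7:152676112-152676191, minus strand (XRCC2), chr16:89816802-89816881, minus strand (FANCA), chr3:10026373-10026452, plus strand (FANCD2), chr9:95317738-95317817, minus strand (FANCC) and chr3:133661931-133662010, minus strand (TOPBP1).
EXO1: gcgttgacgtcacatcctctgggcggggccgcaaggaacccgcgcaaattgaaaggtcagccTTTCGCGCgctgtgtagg
XRCC2: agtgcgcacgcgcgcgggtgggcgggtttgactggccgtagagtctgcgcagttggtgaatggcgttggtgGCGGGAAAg
FANCA: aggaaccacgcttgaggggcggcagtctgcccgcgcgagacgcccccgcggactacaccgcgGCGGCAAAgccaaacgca
FANCD2: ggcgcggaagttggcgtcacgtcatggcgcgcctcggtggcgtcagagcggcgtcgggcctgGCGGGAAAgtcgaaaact
FANCC: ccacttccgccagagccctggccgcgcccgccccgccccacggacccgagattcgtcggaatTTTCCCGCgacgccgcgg
TOPBP1: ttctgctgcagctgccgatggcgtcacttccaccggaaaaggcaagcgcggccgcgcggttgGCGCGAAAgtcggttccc

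Of the 19 genes with a window that fell, 4 held an E2F word, and of the 18 that did not pass, 2 did. CCAAT was in 10 of the 19 and 8 of the 18. The densest CCAAT windows, with 5 matches each, belonged to XRCC3, which fell, and to RECQL, which did not pass, and their last 220 bases before the start are therefore shown beside each other, at chr14:103715452-103715671, minus strand and chr12:21501636-21501855, minus strand (capitals mark CCAAT, or ATTGG where it lies on the other strand).
XRCC3: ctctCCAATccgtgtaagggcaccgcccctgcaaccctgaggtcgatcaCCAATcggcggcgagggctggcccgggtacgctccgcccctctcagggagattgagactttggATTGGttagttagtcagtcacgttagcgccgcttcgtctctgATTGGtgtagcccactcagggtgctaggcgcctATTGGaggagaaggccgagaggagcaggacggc
RECQL: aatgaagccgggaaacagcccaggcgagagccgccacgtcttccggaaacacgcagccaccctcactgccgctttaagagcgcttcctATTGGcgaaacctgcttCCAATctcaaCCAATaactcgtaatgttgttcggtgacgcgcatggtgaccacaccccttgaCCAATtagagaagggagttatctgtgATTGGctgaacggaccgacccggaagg

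Among genes of end resection, 2 of 4 fell. Here and for each arm below, the paired fit called 5.39% of all genes tested lower. RBBP8 encodes CtIP, which starts resection, and EXO1 (chromosome 1, 241847967 to 241895148, plus strand; GRCh38, GENCODE 29) encodes the exonuclease that extends it. EXO1 stood at 45.9, 19.9 and 25.2 CPM in knockdown libraries 1 to 3, against 54.2, 49.2 and 38.1 CPM in control libraries 1 to 3. RBBP8 stood at 53.1, 37.2 and 42.2 CPM in knockdown libraries 1 to 3, against 60.6, 63.4 and 57.7 CPM in control libraries 1 to 3. Both were lowest in knockdown library 2, and the groups did not overlap for RBBP8, while the EXO1 level of knockdown library 1 exceeded that of control library 3. The log2 fold change was -0.70 (SE 0.171, adjusted p 0.0404) for EXO1 and -0.47 (SE 0.110, adjusted p 0.0360) for RBBP8. The RBBP8 call was lost with paired DESeq2, and without pair 2 the EXO1 value was -0.42. NBN and RAD50, subunits of the complex that senses and tethers broken ends, did not pass: NBN stood at 79.4, 78.4 and 81.9 CPM in knockdown libraries 1 to 3, against 78.3, 92.1 and 80.1 CPM in control libraries 1 to 3. The groups overlapped for NBN and for RAD50, whose paired log2 fold changes were -0.062 (SE 0.0788) and -0.11 (SE 0.139). RAD50 varied more by library number than by group, with the highest level in library 2 of both groups (19.3 CPM in knockdown and 22.9 CPM in control).

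The BRCA axis held 3 genes that fell and 2 that did not pass. BRCA1 (chromosome 17, 43044295 to 43170245, minus strand), the ubiquitin ligase that promotes resection and recruits the recombination machinery, stood at 69.3, 32.7 and 39.3 CPM in knockdown libraries 1 to 3, against 79.7, 84.9 and 61.6 CPM in control libraries 1 to 3. BRCA2 (chromosome 13, 32315474 to 32400266, plus strand), a mediator of strand exchange, stood at 44.0, 24.3 and 29 CPM in knockdown libraries 1 to 3, against 51.6, 55.8 and 38.7 CPM in control libraries 1 to 3. For both genes knockdown libraries 2 and 3 lay below all control libraries, and knockdown library 1 lay above control library 3. Their log2 fold changes were -0.74 (SE 0.179, adjusted p 0.0398) and -0.61 (SE 0.164, adjusted p 0.0498). Without pair 2 the values were -0.43 for BRCA1 and -0.33 for BRCA2. BRIP1, the BRCA1-associated helicase also known as FANCJ, stood at 65.5, 28.5 and 43.7 CPM in knockdown libraries 1 to 3, against 82.1, 69.1 and 67.4 CPM in control libraries 1 to 3. Its groups did not overlap, and its log2 fold change was -0.73 (SE 0.151, adjusted p 0.0287). The obligate partner of BRCA1, BARD1, had a log2 fold change of -0.26 (SE 0.0847, adjusted p 0.0888) and did not pass. PALB2, the bridge between the BRCA1 and BRCA2 proteins, stood at 31.2, 26.2 and 22.9 CPM in knockdown libraries 1 to 3, against 29.2, 31.1 and 27.0 CPM in control libraries 1 to 3. Its knockdown levels straddled those of control, with differences of 0.095, -0.24 and -0.23 in pairs 1, 2 and 3 (adjusted p 0.449).

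The strand exchange genes split between 4 genes that fell and 4 that did not pass. RAD54L (chromosome 1, 46247688 to 46278473, plus strand), which encodes the motor protein that drives strand exchange, had the most negative fold change of the 42 genes. It stood at 25.0, 16.1 and 21.3 CPM in knockdown libraries 1 to 3, against 35.3, 43.7 and 34.2 CPM in control libraries 1 to 3. All knockdown libraries lay below all control libraries, and the log2 fold change was -0.88 (SE 0.166, adjusted p 0.0256), or 54.4% of the control level. XRCC2, a factor that stabilises the filaments of strand exchange, stood at 26.3, 11.2 and 16.4 CPM in knockdown libraries 1 to 3, against 35.3, 29.4 and 26.5 CPM in control libraries 1 to 3, a log2 fold change of -0.81 (SE 0.169, adjusted p 0.0287). RAD51AP1, which stimulates joint molecule formation, stood at 38.0, 19.9 and 25.1 CPM in knockdown libraries 1 to 3, against 46.7, 49.0 and 43.6 CPM in control libraries 1 to 3, a log2 fold change of -0.79 (SE 0.161, adjusted p 0.0272). The groups did not overlap for XRCC2 or RAD51AP1, and knockdown library 1 was the highest of its group for both. XRCC3, which pairs with RAD51C, stood at 32.3, 23.9 and 28.4 CPM in knockdown libraries 1 to 3, against 48.0, 48.8 and 36.6 CPM in control libraries 1 to 3. Its log2 fold change was -0.65 (SE 0.128, adjusted p 0.0266), without overlap between groups. XRCC3 shares exon sequence with KLC1 on the opposite strand, and RAD54L with LRRC41. Levels of RAD51B, RAD51C and RAD51D had log2 fold changes of -0.36, -0.25 and -0.14, with adjusted p of 0.226, 0.109 and 0.598. Of these, RAD51B and RAD51C were lower in every knockdown library than in any control library, at a small size. RAD54B, a second translocase related to RAD54L, stood at 70.5, 66.9 and 66.4 CPM in knockdown libraries 1 to 3, against 69.8, 70.8 and 63.6 CPM in control libraries 1 to 3; it was named after its values were seen. Its log2 fold change was -0.0017 (SE 0.0736), and its sign turned with RLE size factors (0.0059 in the paired fit). RAD54B shares exon sequence with FSBP on the same strand, and FSBP was listed at 0.

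The Fanconi core complex is the ubiquitin ligase of the pathway, with FANCL as the catalytic subunit, and 3 of the 8 genes listed for it here fell. Its further subunit genes FAAP100, FAAP20 and FAAP24 lie outside the 42. They had log2 fold changes of -0.045, 0.030 and 0.23 and did not pass. FANCA (chromosome 16, 89737549 to 89816657, minus strand), a scaffold subunit, stood at 41.8, 28.9 and 36.6 CPM in knockdown libraries 1 to 3, against 57.5, 69.4 and 58.9 CPM in control libraries 1 to 3. It fell by 0.81 on the log2 scale (SE 0.137, adjusted p 0.0244), with no overlap between groups, and it shares exon sequence with ZNF276 on the opposite strand. FANCE, which contacts FANCD2, stood at 15.9, 13.7 and 16.3 CPM in knockdown libraries 1 to 3, against 24.8, 30.6 and 21.9 CPM in control libraries 1 to 3, a log2 fold change of -0.74 (SE 0.155, adjusted p 0.0287). FANCG, which binds FANCA, stood at 55.0, 45.0 and 47.4 CPM in knockdown libraries 1 to 3, against 59.0, 67.9 and 70.6 CPM in control libraries 1 to 3, a log2 fold change of -0.44 (SE 0.106, adjusted p 0.0398). Neither overlapped between groups, and the pair that moved least differed: FANCG had -0.10, -0.59 and -0.57 and FANCE -0.63, -1.15 and -0.42 in pairs 1, 2 and 3. The FANCG call was lost with paired DESeq2 and without pair 3. FANCB had a fold change close to that of FANCE, -0.66 (SE 0.206, adjusted p 0.0769), at only 6.22 ± 0.977 CPM in knockdown and 9.76 ± 1.62 CPM in control libraries (mean ± SD, n = 3 each), and did not pass. FANCL and FANCM, the DNA translocase that anchors the complex, had -0.13 and -0.14 and did not pass. FANCC stood at 64.9, 53.7 and 63.1 CPM in knockdown libraries 1 to 3, against 62.5, 60.6 and 59.4 CPM in control libraries 1 to 3, with a log2 fold change of -0.011 (SE 0.0834). FANCF, an adaptor subunit shown after its values were seen, was the one gene with every knockdown library above every control library and stood at 33.1, 31.4 and 29.8 CPM in knockdown libraries 1 to 3, against 25.9, 26 and 25.2 CPM in control libraries 1 to 3. Its log2 fold change of 0.28 (SE 0.0970, adjusted p 0.0957) did not pass; the gene has a single exon and shares 333 bases with GAS2 on the opposite strand.

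Downstream of the core complex, both genes of the ID2 pair fell. FANCD2 (chromosome 3, 10026414 to 10101930, plus strand), the clamp subunit that receives ubiquitin, stood at 89.7, 51.9 and 65.0 CPM in knockdown libraries 1 to 3, against 113, 112 and 100.1 CPM in control libraries 1 to 3. FANCI, its partner, stood at 167, 80.4 and 116 CPM in knockdown libraries 1 to 3, against 205, 196 and 176 CPM in control libraries 1 to 3. Each knockdown library was below each control library for both genes, and the order of the knockdown libraries was the same, with library 1 highest and library 2 lowest. The log2 fold changes were -0.69 (SE 0.126, adjusted p 0.0256) for FANCD2 and -0.72 (SE 0.152, adjusted p 0.0292) for FANCI. Without pair 2 the value of FANCI was -0.46, and its call was lost with paired DESeq2. The differences within pairs 1, 2 and 3 were -0.33, -1.10 and -0.62 for FANCD2, and -0.30, -1.28 and -0.60 for FANCI. FANCD2 has an annotated pseudogene copy, FANCD2P2, and FANCI shares exon sequence with POLG on the opposite strand.

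The RecQ helicases divided evenly. BLM (chromosome 15, 90717327 to 90816165, plus strand), which dissolves recombination intermediates, stood at 58.1, 28.5 and 37.0 CPM in knockdown libraries 1 to 3, against 76.3, 69.7 and 57.6 CPM in control libraries 1 to 3. RECQL4, a helicase that also takes part in replication initiation, stood at 50.7, 37.7 and 44.8 CPM in knockdown libraries 1 to 3, against 71.1, 87.2 and 68.0 CPM in control libraries 1 to 3. The log2 fold changes were -0.76 (SE 0.148, adjusted p 0.0261) for BLM and -0.77 (SE 0.130, adjusted p 0.0244) for RECQL4; only knockdown library 1 of BLM reached into the control range. RECQL, the most abundant RecQ helicase per unit of transcript length, stood at 84.6, 85.0 and 81.2 CPM in knockdown libraries 1 to 3, against 86.2, 90.6 and 86.1 CPM in control libraries 1 to 3. WRN, mutated in Werner syndrome, had a log2 fold change of -0.11 (SE 0.0728), beside -0.069 (SE 0.0666) for RECQL, and neither passed (adjusted p 0.357 and 0.531). RECQL shares exon sequence with PYROXD1 on the opposite strand.

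Of the 6 checkpoint kinase and activator genes, the 2 effector kinases fell and the other 4 did not pass. CHEK1, the effector of ATR, stood at 78.6, 54.3 and 63.6 CPM in knockdown libraries 1 to 3, against 89.1, 85.5 and 78.2 CPM in control libraries 1 to 3. CHEK2, the effector of ATM, stood at 30.6, 16.8 and 24.9 CPM in knockdown libraries 1 to 3, against 39.0, 33.9 and 32.6 CPM in control libraries 1 to 3. Their log2 fold changes were -0.38 (SE 0.0964, adjusted p 0.0440) and -0.57 (SE 0.138, adjusted p 0.0398); the CHEK1 levels of knockdown library 1 and control library 3 lay within 1 CPM of each other. Without pair 2 the values were -0.25 for CHEK1 and -0.37 for CHEK2. Both calls were lost with paired DESeq2, and that of CHEK1 also without pair 3. CHEK2 has near-identical annotated pseudogenes among which its reads could be split (CHEK2P2 was listed at 0), and CHEK1 shares 80 exon bases with STT3A. The apical kinases were chosen for display after their values were seen. ATM stood at 130.3, 149 and 111 CPM in knockdown libraries 1 to 3, against 134, 132 and 104 CPM in control libraries 1 to 3. ATR stood at 60.4, 61.8 and 51.4 CPM in knockdown libraries 1 to 3, against 58.4, 63.2 and 51.9 CPM in control libraries 1 to 3. The groups overlapped for both kinases, and the log2 fold changes were 0.078 (SE 0.0688) and -0.0019 (SE 0.0755). ATRIP, the partner that brings ATR to single-stranded DNA, had -0.46 (SE 0.125, adjusted p 0.0526) with no overlap between groups, and did not pass; it shares exon sequence with TREX1 on the same strand. TOPBP1, the activator of ATR, had -0.21 (SE 0.0998, adjusted p 0.205).

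**Figure D2:**
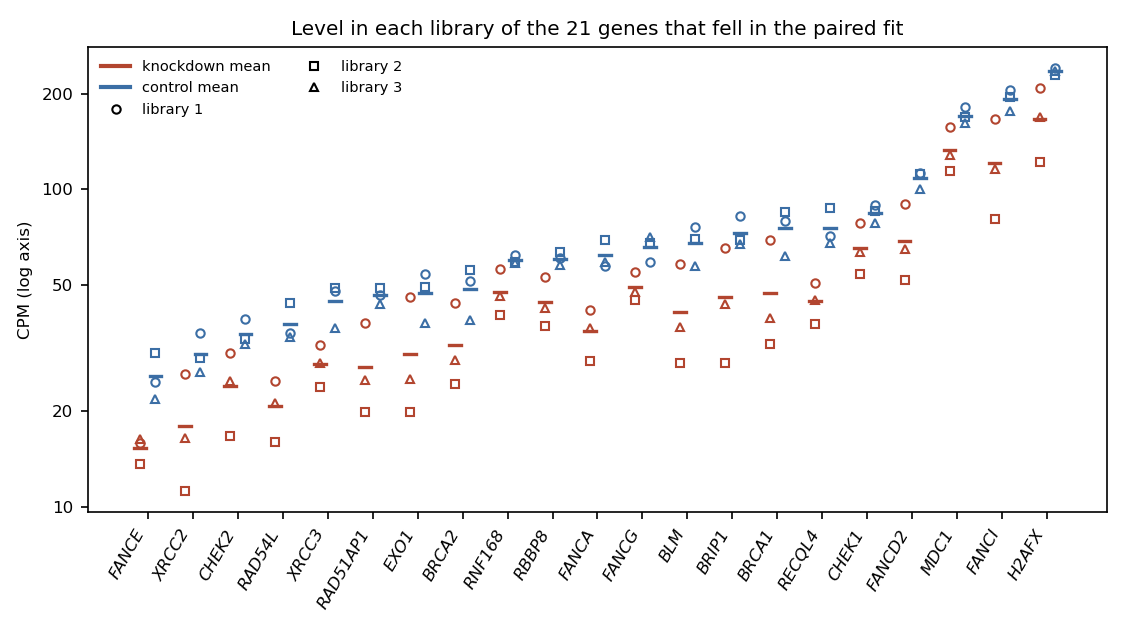
Level of the 21 genes that fell, in order of control mean; the y axis is CPM on a log axis, open symbols are single libraries (knockdown red, control blue) and bars are group means of 3 libraries. The square of knockdown library 2 is the lowest point of each gene, and knockdown library 1 is the closest of its group to control for most genes.

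Of the 5 genes that act at the chromatin around a break, H2AFX, MDC1 and RNF168 fell. H2AFX (chromosome 11, 119093854 to 119095467, minus strand) encodes histone H2AX, which ATM phosphorylates, and stood at 208, 122 and 168 CPM in knockdown libraries 1 to 3, against 241, 229.7 and 235 CPM in control libraries 1 to 3. MDC1, the reader of phosphorylated H2AX, stood at 157, 114 and 128 CPM in knockdown libraries 1 to 3, against 181, 168 and 162 CPM in control libraries 1 to 3. RNF168, a ubiquitin ligase that acts on histone H2A, stood at 56.0, 40.1 and 46.1 CPM in knockdown libraries 1 to 3, against 61.9, 58.9 and 58.7 CPM in control libraries 1 to 3. None of the 3 overlapped between groups, and their log2 fold changes were -0.53 (SE 0.115, adjusted p 0.0304), -0.37 (SE 0.0777, adjusted p 0.0288) and -0.35 (SE 0.0944, adjusted p 0.0499). The RNF168 call was lost with RLE size factors, with DESeq2 and without pair 3, and that of MDC1 without pair 3, all in the paired analysis. RNF8, the ligase that acts before RNF168, stood at 37.6, 28.2 and 32.2 CPM in knockdown libraries 1 to 3, against 34.0, 32.8 and 34.3 CPM in control libraries 1 to 3, a log2 fold change of -0.060 (SE 0.102). TP53BP1, which binds the marked chromatin and opposes resection, stood at 224, 247 and 225 CPM in knockdown libraries 1 to 3, against 227, 219 and 206 CPM in control libraries 1 to 3; it too was named after its values were seen. Its log2 fold change was 0.10 (SE 0.0660, adjusted p 0.362), and its exons overlap those of TUBGCP4 on the opposite strand.

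**Figure D3:**
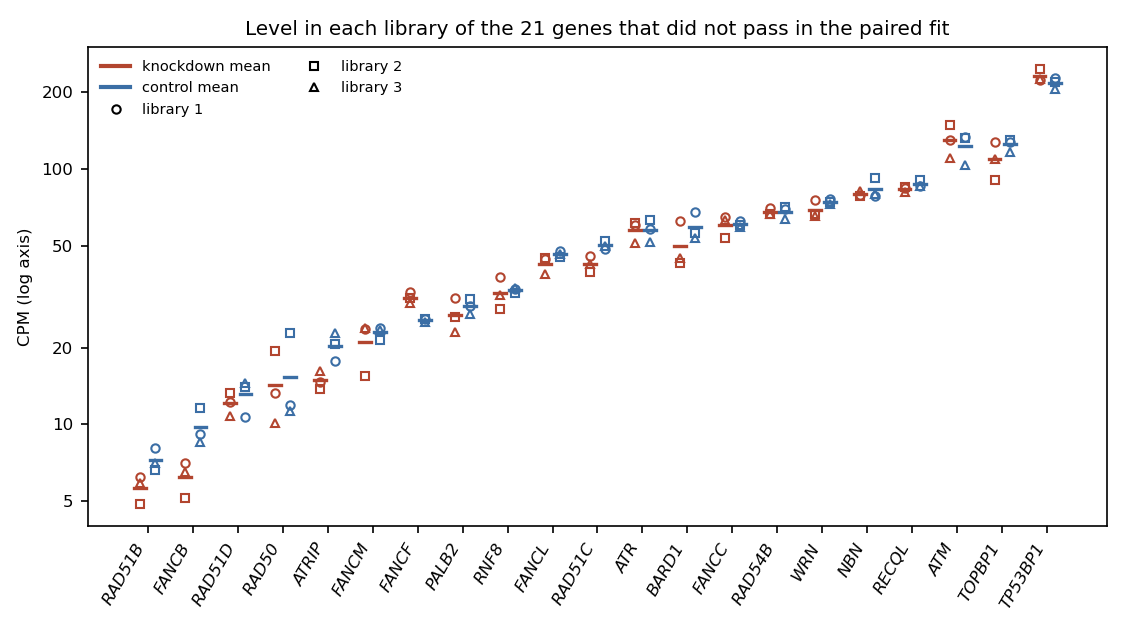
Level of the 21 genes that did not pass in the paired fit, drawn in the same way (y axis in CPM, log axis). Symbols of both groups mix for most genes, while FANCF lies higher in knockdown (31.4 against 25.7 CPM on average) and FANCB, ATRIP, RAD51B, RAD51C, FANCL and RECQL lie lower without overlap.

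By arm, the paired median was -0.70 for the ID2 pair, -0.61 for the BRCA axis, -0.51 for strand exchange genes and -0.44 for RecQ helicases. It was -0.35 for break-site chromatin genes, and -0.29, -0.29 and -0.29 for checkpoint genes, end resection and the core complex. These are medians over 2 to 8 genes and were not tested against each other. All 8 arms had their most negative median in pair 2 and their least negative in pair 1. The genes that fell had control means from 25.8 to 235 CPM and those that did not pass from 7.27 to 217 CPM. RAD51B, FANCB, RAD51D, RAD50, ATRIP, FANCM and FANCF had the lowest control means of the members, and none of them passed. Whether low counts kept them from passing was not tested.

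Other genes of the same pathways were looked up from lists drawn by function. Over all genes tested, the paired fit called 5.39% lower and 4.63% higher, and counts near these shares are not read as a change of a list. Of 48 other recombination and Fanconi genes tested, 12 fell and 0 rose (median -0.17). The nuclease and helicase gene DNA2 stood at 41.1, 25.3 and 28.2 CPM in knockdown libraries 1 to 3, against 57.5, 44.5 and 41.1 CPM in control libraries 1 to 3, a log2 fold change of -0.61 (SE 0.0973, adjusted p 0.0222), and USP1, whose product removes ubiquitin from FANCD2, had -0.57 (SE 0.105, adjusted p 0.0256). Of 21 other checkpoint genes, 5 fell and 0 rose (median -0.086). CLSPN, the mediator between ATR and CHEK1, had -0.96 (SE 0.160, adjusted p 0.0230) and the fork protection gene TIMELESS -0.57 (SE 0.102, adjusted p 0.0246). The mitotic kinase gene TTK, which is also counted among the G2/M genes below, had -0.65 (SE 0.137, adjusted p 0.0291). RHNO1 and CDC25A fell as well. Of 17 genes of end joining, 2 fell and 0 rose (median -0.17), namely C9orf142, which encodes the Ku-binding factor PAXX, with -0.55 (SE 0.0978, adjusted p 0.0244), and PARP1, a sensor of DNA strand breaks, with -0.51 (SE 0.124, adjusted p 0.0396). PRKDC, the catalytic subunit of the end joining kinase, had -0.17 (SE 0.0628, adjusted p 0.122).

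Genes of S phase and of G2/M, in which many repair genes are known to be transcribed, also fell in the paired fit. The summed level of 34 S phase genes was 4495, 2632 and 3159.8 CPM in knockdown libraries 1 to 3, against 5198, 4907 and 4369.5 CPM in control libraries 1 to 3. The summed level of 30 G2/M genes was 4703, 2254 and 3496 CPM in knockdown libraries 1 to 3, against 5624, 4861 and 5071 CPM in control libraries 1 to 3. The summed level of the 42 members was 2655, 2031 and 2204 CPM in knockdown libraries 1 to 3, against 2966, 2975 and 2689 CPM in control libraries 1 to 3. All 3 sums were lowest in knockdown library 2, and the members' sum in knockdown library 1 was within 34 CPM of that in control library 3. In the paired fit 30 of 34 S phase genes (median -0.57) and 29 of 30 G2/M genes (median -0.65) fell and none of either list rose. Of all genes tested, 5.39% were called lower and 4.63% higher in that fit. The pair medians were -0.23, -1.0 and -0.47 for S phase and -0.27, -1.13 and -0.52 for G2/M in pairs 1, 2 and 3. In bulk RNA, fewer cycling cells and less RNA of these genes per cell cannot be told apart, and the part of the cell cycle lists in the members' change was not tested. Of 13 mesenchymal markers, 4 rose, 0 fell and 9 did not pass, and the summed level of the 13 was 4106, 5074 and 4651 CPM in knockdown libraries 1 to 3, against 3526, 3946 and 3677 CPM in control libraries 1 to 3, with none of the 13 at 0. Of those that rose, COL3A1 averaged 1393 ± 265 CPM in knockdown and 1057 ± 139.7 CPM in control libraries and SPARC 1471 ± 115 CPM in knockdown and 1160.2 ± 44.5 CPM in control libraries (mean ± SD, n = 3 each), and the part of these markers in the result was not tested. Of the other marker lists, 3 of 7 astroglial genes tested rose, 1 of 14 neural stem cell genes (PLAGL1) and 2 of 8 neuronal genes (ELAVL3 and NEFM) fell, and 0 of 5 oligodendrocyte and 0 of 3 pluripotency genes passed. The neural stem cell count is near the share of all genes called lower.

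**Figure D4:**
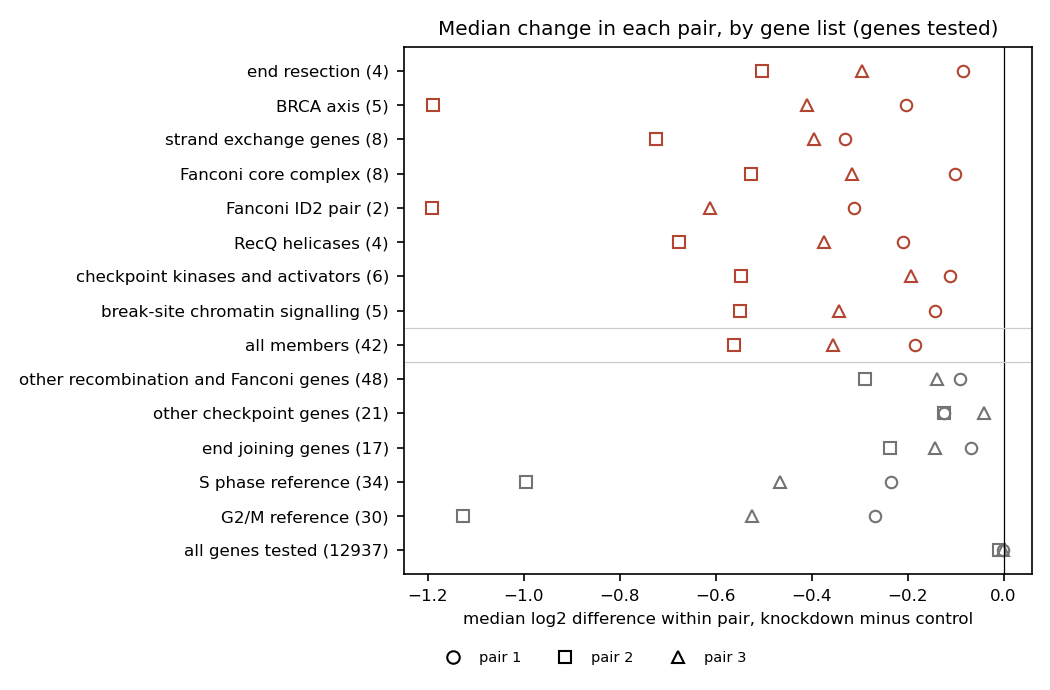
Median log2 difference within each pair, knockdown minus control (x axis), for the 8 arms and all 42 members (red) and for the reference lists and all tested genes (grey), with the number of genes tested in brackets. Pair 2 lies farthest below 0 for each of the 8 arms and for S phase and G2/M genes, while all tested genes lie at 0.01 or less from 0 in each pair.

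Levels can be compared between genes only per transcript length, here as CPM per kilobase of the longest GENCODE 29 transcript (protein-coding where there is one). On this scale, in order of the control level, H2AFX was the highest of the 42, at 103 ± 26.8 in knockdown and 146 ± 3.36 in control libraries (mean ± SD, n = 3 each). FANCI followed at 25.5 ± 9.14 in knockdown and 40.5 ± 3.12 in control libraries, then FANCL at 25.1 ± 1.92 in knockdown and 27.4 ± 0.678 in control libraries and FANCG at 18.7 ± 1.99 in knockdown and 25.0 ± 2.30 in control libraries. The control levels of FANCI and FANCL were separated by more than their SDs, those of FANCL and FANCG by less than the sum of their SDs. In knockdown libraries FANCI and FANCL lay within their spread of each other, and RECQL, TP53BP1 and RAD54B lay above FANCG. The lowest control levels belonged to RAD51B, at 2.17 ± 0.268 in knockdown and 2.80 ± 0.285 in control libraries, RAD50, at 1.71 ± 0.562 in knockdown and 1.85 ± 0.785 in control libraries, and RAD51D, at 1.21 ± 0.123 in knockdown and 1.31 ± 0.213 in control libraries, where RAD51D is divided by an annotated transcript of 9988 bases; the control levels of RAD51B and RAD50, and of RAD50 and RAD51D, lay within the sum of their SDs. In knockdown libraries FANCB, at 2.07 ± 0.325 in knockdown and 3.25 ± 0.538 in control libraries, also lay below RAD51B, by less than their spread. ATM stood at 9.88 ± 1.43 in knockdown and 9.37 ± 1.30 in control libraries and ATR at 7.01 ± 0.679 in knockdown and 7.01 ± 0.686 in control libraries, while BRCA1 stood at 6.48 ± 2.68 in knockdown and 10.4 ± 1.68 in control libraries.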

How the data were processed

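Total RNA of AF22 cells was made into directional libraries (3 knockdown, 3 control), per the labels' protocols; groups and numbers come from the sample titles. The authors deposited whole-number read counts per gene symbol, 1 table per library, judged raw from the values. Per the submitters' processing notes, Trim Galore 0.6.6, STAR 2.7.10a, bedtools and hg38 were used; the sources used here give no counting program, annotation or strand setting, so reads of overlapping, antisense or near-identical genes may have been split or dropped. The 42 genes, the pathway lists and their arms were chosen by function with earlier results of these data known.

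Counts were analysed in R 4.3.3 with edgeR 4.0.16: filterByExpr with its defaults (12937 genes), TMM factors and the quasi-likelihood test with group as the only term, Benjamini-Hochberg adjusted over all genes tested at 0.05. The SE is the size of the log2 fold change divided by the square root of F. CPM uses TMM-scaled totals, and pair differences use log2 CPM with a prior count of 2. The labels number both groups 1 to 3 without saying what a number means. Across genes, the deviations of 2 libraries with one number from their group means correlated at 0.563, 0.467 and 0.535, and those of differently numbered libraries at -0.342 to -0.107. Deviations within a group cancel out, so positive values of the first kind push the others to be negative, and those add no evidence for pairing. All 3 same-number values being above 0.1, pairs were formed by number. This pairing comes from the data, not from the labels, and the paired fit (a listed alternative) has the number as a blocking term. Adjusted p and SE values beside single genes are from that paired edgeR fit unless said otherwise. Replicates differed by more than sampling noise (chi-square per gene at least 3.19).

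Alternatives were limma 3.58.1 (voom), DESeq2 1.42.0, RLE factors, scaling by total count alone, no filter or a filter of 1 CPM in at least 3 libraries, leaving out each library or pair, and removal of a GC content and transcript length trend (found for 94.5% of tested genes). Levels in single libraries were to be given for genes past the threshold in either fit and for the gene nearest 0 in each arm, up to 26 genes; other pathway lists name up to 3 genes of smallest paired p. Genes named beyond this rule were chosen after their values were seen, also where a list's few called genes are all named. Positions and overlaps are from GENCODE 29 (GRCh38) and promoters from RefSeq (GRCh38.p14). The values of 1 gene of the pathway lists are not reported here. The pipeline was tested on simulated counts.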

Additional observations from a re-analysis of the deposited data

How the results depend on the processing

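Without the replicate block the edgeR test called none of the 42 genes and no gene at all, also with RLE factors, total count only or at least 1 CPM in 3 libraries; with no filter it called 2 genes lower, and DESeq2 called 6 of the 42 lower among 80 lower and 62 higher genes. In the paired analysis the members called lower were 21 with the block alone (all genes: 697 lower, 599 higher), 20 with RLE factors (all genes: 684 lower, 651 higher), 22 with total count only (all genes: 789 lower, 494 higher), 23 with no filter (all genes: 1135 lower, 1036 higher), 21 with at least 1 CPM in 3 libraries (all genes: 710 lower, 618 higher), 15 with DESeq2 (all genes: 350 lower, 240 higher), 22 with the GC and length trend removed (all genes: 787 lower, 903 higher). No setting called a member higher. Leaving out 1 library or pair gave 0 to 22 members lower, among 0 to 1098 lower and 0 to 1198 higher genes; the unpaired edgeR test called members only without knockdown library 1. The median of the members stayed between -0.48 and -0.30. Of the 21 members called in the paired fit, 14 were called in all 10 paired settings. The same share was not counted for all 697 genes called lower, so whether 14 of 21 is unusual is not known. RBBP8, FANCI and CHEK2 were lost with DESeq2, MDC1 without pair 3, FANCG and CHEK1 with both, and RNF168 with both and with RLE factors. These settings reuse the same libraries, and those without a pair have fewer libraries to estimate spread, so a kept call is weak support. BMI1, at an adjusted p of 0.163 unpaired, passed in the paired analysis at -1.64 with the block alone, -1.63 with RLE factors, -1.65 with total count only, -1.64 with no filter, -1.64 with at least 1 CPM in 3 libraries, -1.63 with DESeq2, -1.61 with the GC and length trend removed, and unpaired at -1.61 with no filter and -1.59 with DESeq2; leaving out libraries or pairs gave -1.89 to -1.44. Signs turned for genes near 0, none of them called: leaving out libraries or pairs gave NBN (-0.11 to 0.026), RAD50 (-0.42 to 0.29), RAD51D (-0.26 to 0.037), RAD54B (-0.051 to 0.039), FANCC (-0.063 to 0.073), FANCM (-0.25 to 0.053), ATM (-0.036 to 0.18), ATR (-0.076 to 0.079) and RNF8 (-0.15 to 0.041). RAD54B was at 0.0036 with RLE factors and 0.0033 with DESeq2 unpaired, and at 0.0059 and 0.0057 paired, with 0.033 after the GC and length trend was removed. ATR was at 0.0048 with RLE factors and 0.0048 with DESeq2 unpaired, and at 0.0057 and 0.0065 paired. The causes were not tested. The depth behind the least counted member, RAD51B, was 30 counts in its lowest library.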

Other observations

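Several members share exon sequence with a neighbouring gene, and since the strand setting of the counting is not given, the values of the more highly counted neighbours are given here. On the same strand, RAD54B shares 3139 exon bases with FSBP, listed at 0, and RAD51D shares 905 with RAD51L3-RFFL, at 1 count in all. Whether reads of these members were split or dropped was not tested. KLC1, a kinesin light chain gene that shares 5756 exon bases with XRCC3, had a paired log2 fold change of -0.055 (SE 0.0652, adjusted p 0.615). LRRC41, opposite RAD54L with 806 shared bases, had 0.013 (SE 0.0610, adjusted p 0.912), ZNF276, opposite FANCA with 2302, -0.051 (SE 0.126, adjusted p 0.824), and POLG, the mitochondrial DNA polymerase gene opposite FANCI with 458, 0.055 (SE 0.0745, adjusted p 0.666). TREX1, an exonuclease gene that shares 1515 bases with ATRIP on the same strand, had -0.11 (SE 0.122, adjusted p 0.574). STT3A, beside CHEK1, had 0.021 (SE 0.0659, adjusted p 0.858) and HSCB, opposite CHEK2, 0.049 (SE 0.178, adjusted p 0.881). TUBGCP4, opposite TP53BP1 with 3732 shared bases, had -0.27 (SE 0.0896, adjusted p 0.0864), a sign unlike that of TP53BP1, and PYROXD1, opposite RECQL, had -0.34 (SE 0.142, adjusted p 0.157). NPAT, the activator of histone gene transcription opposite ATM, had 0.069 (SE 0.0893, adjusted p 0.651). None of the 10 neighbours with a fold change given here passed in the paired edgeR test.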
